A study of Sus scrofa with 6 samples.

Results

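FGF2 and FGF7, 2 secreted fibroblast growth factor ligands, and DUSP6, a phosphatase gene switched on downstream of FGF signalling, were followed across 6 pig cell samples. The array held 23999 probe sets after its controls were left out, and 10069 of them carried exactly 1 gene symbol. The 3 genes were chosen with earlier results of these data known, so the ranks of their differences among all probe sets are only a description. All probe sets with the single symbol FGF2, FGF7 or DUSP6 were taken, whatever their values. They were 6 probe sets, 2 for each of the 3 genes (of 6765 named), and each gene's pair is named here by the S1 or A1 in its probe set name (Ssc.17772.1.S1_at and Ssc.17772.1.A1_at for FGF2, Ssc.15923.1.S1_at and Ssc.15923.1.A1_at for FGF7, Ssc.8865.2.S1_at and Ssc.8865.1.A1_at for DUSP6).

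FGF ligands bind receptor tyrosine kinases together with heparan sulfate chains on the cell surface, and the receptors pass the signal through adaptor proteins to RAS, RAF, MEK and ERK. FGF2 is added to the medium of human pluripotent stem cells to keep them undifferentiated, whereas FGF/ERK signalling in mouse embryonic stem cells favours exit from the naive state. FGF7, also called keratinocyte growth factor, is made by mesenchymal cells and acts on the epithelial splice form of FGFR2. DUSP6 dephosphorylates ERK, and because ERK signalling raises its transcription, it acts as negative feedback and is widely used as a readout of the pathway.

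The study set pig induced pluripotent stem (iPS) cell lines made in one laboratory beside lines from other laboratories that differ in surface markers, and the labels do not give the origin of each line. Total RNA was hybridised to the Affymetrix Pig Genome Array, 1 array per sample. There were 4 iPS lines: PS24, labelled SSEA1, SSEA3 and SSEA4 positive, 30AC5, labelled SSEA1 positive, and iPF4-2 and iPSCs-w, both labelled SSEA3 and SSEA4 positive. They were set against 2 samples labelled somatic: PEF, an embryo fibroblast culture, and PAFSC, an amniotic fluid stem cell culture. PS24 and 30AC5 are called SSEA1-labelled lines below, and iPF4-2 and iPSCs-w SSEA3/SSEA4-only lines. All samples were grown in DMEM with 15% serum. The iPS lines were kept on mouse embryonic fibroblast feeders, so iPS identity and growth on feeders cannot be told apart in the comparison with somatic cells. No label gives replicate cultures of 1 line or cell type: each array is another line or culture, and the p-values below measure only the spread between these arrays.

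Each deposited value is on a log2 scale and relative to a baseline that is not stated, with a zero of its own for each probe set. A value therefore says where 1 array stands against the others for that probe set, and levels of different genes, or of the S1 and A1 probe sets of 1 gene, are not compared. PAFSC stood apart: its values had an SD of 2.01 over all probe sets, against 0.610 to 0.808 on the other 5 arrays, and a median of 0.70, against -0.06 to 0.05. PS24 stood apart in the control probe sets for actin, EF1A and GAPDH, where the 5′ minus 3′ value averaged -1.92, against 1.49 in PAFSC and -0.05 to 0.18 on the other 4 arrays. The pluripotency list went against some labels: 4 of its 10 genes were measured, and their median was -0.37 in 30AC5 and -0.33 in PS24, 2.26 in iPSCs-w and 1.75 in iPF4-2, and -0.62 in PEF and 0.59 in PAFSC. POU5F1, a core pluripotency factor, stood at -0.07 in 30AC5, 0.07 in PS24, 3.61 in iPSCs-w and 3.68 in iPF4-2, against -0.50 in PEF and 1.09 in PAFSC. The fibroblast list (8 of 10 genes, 14 probe sets) had medians of 0.00 in 30AC5, 0.05 in PS24, -0.47 in iPSCs-w and 0.08 in iPF4-2, against 3.11 in PEF and 2.02 in PAFSC. Single fibroblast genes were high in iPF4-2 all the same, with LUM at 3.77, POSTN at 3.01 and DCN at 2.34 on one probe set each. The epithelial list (8 of 8 genes, 10 probe sets) had medians of 0.73 in 30AC5, -0.10 in PS24, 1.96 in iPSCs-w and 1.19 in iPF4-2, against -0.47 in PEF and -0.02 in PAFSC. In cultures measured in bulk, fewer cells of a type and less RNA per cell cannot be told apart.

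FGF2 had its highest S1 values in the SSEA1-labelled lines, a difference that did not pass the test after adjustment. The S1 probe set stood at 3.80 in 30AC5 and 2.93 in PS24, at 0.79 in iPSCs-w and 0.09 in iPF4-2, and at 0.46 in PEF and 1.26 in PAFSC. Both SSEA1-labelled lines were thus above every other array, and the SSEA3/SSEA4-only lines overlapped the somatic samples. Of all probe sets, 21.0% had both SSEA1-labelled lines above both SSEA3/SSEA4-only lines, and 16.5% had them above both somatic samples. The share with both at once was not counted. The A1 probe set stood at 2.69 in 30AC5 and 1.00 in PS24, at -0.06 in iPSCs-w and 0.47 in iPF4-2, and at -0.12 in PEF and 1.33 in PAFSC. Here only 30AC5 was above all other arrays, and PS24 lay below PAFSC. The place of PAFSC on A1 changed with the scaling. After median centring PS24 stood at 0.95 and PAFSC at 0.63, and after quantile normalization PS24 stood at 1.38 and PAFSC at 0.32. With either scaling both SSEA1-labelled lines were above every other array on A1, and the share of all probe sets with that order was not counted.

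**Figure D1:**
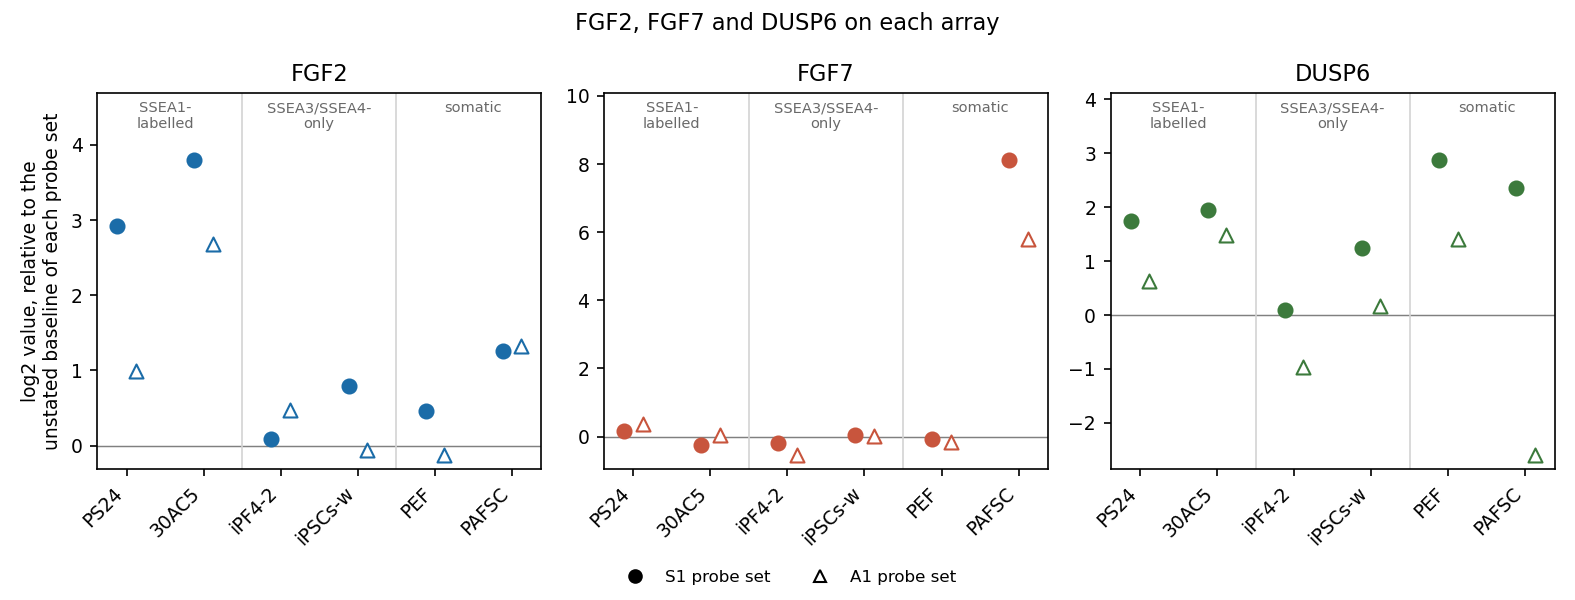
Deposited log2 values of FGF2, FGF7 and DUSP6 on each of the 6 arrays, relative to the unstated baseline of each probe set, with filled circles for the S1 and open triangles for the A1 probe set of a gene. FGF2 S1 stands at 2.93 and 3.80 in the SSEA1-labelled lines, FGF7 S1 at 8.12 in PAFSC and within 0.39 of each other on the other 5 arrays, and the DUSP6 pair parts in PAFSC, at 2.36 and -2.59.

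FGF2 averaged 3.36 ± 0.62 (SD) in the SSEA1-labelled lines and 0.44 ± 0.50 in the SSEA3/SSEA4-only lines on the S1 probe set, n = 2 each. The difference was 2.92 on the log2 scale (SE 0.69, 95% confidence interval 1.32 to 4.51), a 7.56-fold higher signal, with an unadjusted limma p of 0.00306 and a limma adjusted p of 0.669 over all probe sets. Between these classes 0.979% of all probe sets had a difference of larger size. The A1 probe set averaged 1.84 ± 1.20 in the SSEA1-labelled lines and 0.20 ± 0.38 in the SSEA3/SSEA4-only lines, a difference of 1.64 (SE 0.83, limma adjusted p = 1.00). The S1 interval leaves out 0 before adjustment and the A1 interval, -0.29 to 3.57, does not, and neither passed the adjusted threshold of 0.05. With PAFSC left out of the fit the S1 difference was the same, its SE was 0.43 and its limma adjusted p was 0.122. With PAFSC and PS24 both left out, 30AC5 alone exceeded the SSEA3/SSEA4-only lines by 3.36 (limma adjusted p = 0.198).

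In this comparison of the marker classes limma called 0 of the 6 probe sets of FGF2, FGF7 and DUSP6, beside 0 (0.0%) of all probe sets, of which 681 (2.84%) had an unadjusted p under 0.05. Both SSEA1-labelled lines were above both SSEA3/SSEA4-only lines for 5 of the 6 probe sets, all but FGF7 S1, where 21.0% of all probe sets stood apart in that direction. Each gene's pair carries the same symbol, so these 5 are not counted as independent. Whether the S1 and A1 probe sets of a gene read the same strand was not tested. Marker lists of other cell types moved between the same lines. Both SSEA1-labelled lines were below both SSEA3/SSEA4-only lines for 8 of the 10 epithelial probe sets (median difference -2.29) and for all 4 pluripotency probe sets (median difference -2.55), where 20.2% of all probe sets stood apart in that direction. EPCAM, an epithelial adhesion molecule, stood at -1.03 in 30AC5 and -0.16 in PS24, against 4.98 in iPSCs-w and 3.18 in iPF4-2. The fibroblast list had a median difference of 0.12 between the classes. In the amniotic fluid or mesenchymal stem surface list 5 of 7 probe sets stood apart with the SSEA1-labelled lines higher and 0 lower (median difference 0.66). Of 12 endothelial probe sets 4 stood apart higher and 2 lower, and of 3 macrophage probe sets 0 higher and 1 lower. The part of these markers in the FGF2 and DUSP6 differences was not tested.

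The 4 iPS lines together did not separate from the somatic samples for FGF2. Their S1 values averaged 1.90 ± 1.75 (SD, n = 4), against 0.86 ± 0.56 in the somatic samples (n = 2), a difference of 1.04 (SE 1.02, limma adjusted p = 0.537). The A1 values averaged 1.02 ± 1.19 in the iPS lines and 0.60 ± 1.02 in the somatic samples, a difference of 0.42 (SE 0.82, limma adjusted p = 0.750). Within the iPS lines the S1 values ran from 0.09 to 3.80 and enclosed both somatic values. Without PAFSC the differences were 1.44 for S1 and 1.14 for A1.

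Against the somatic samples the SSEA1-labelled lines differed by 2.50 on the FGF2 S1 probe set (SE 0.69, limma adjusted p = 0.587) and by 1.24 on A1 (SE 0.83). The SSEA3/SSEA4-only lines differed from the somatic samples by -0.42 on S1 and -0.40 on A1, which quantile normalization turned to 0.13 on S1 and 0.22 on A1. Limma called 0 of all probe sets (0.0%) in both of these comparisons, which share the somatic arrays, with 1575 (6.56%) at an unadjusted p under 0.05 in the first and 2269 (9.45%) in the second. On the S1 probe set the SSEA1-labelled lines did not overlap the somatic samples, as for 16.5% of all probe sets in that direction. Against PEF alone the S1 difference was 2.90 (limma adjusted p = 0.130). Against PAFSC alone it was 2.10 (limma adjusted p = 0.0225), in a fit that takes the lone somatic array to vary like the iPS lines and that called 59.3% of all probe sets, so this p does not set FGF2 apart.

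Ranked by value, the S1 probe set of FGF2 placed 30AC5 first, then PS24, PAFSC, iPSCs-w, PEF and iPF4-2. The moderated residual SD of the probe set in the limma fit on 3 classes, 0.69, was smaller than the gap of 0.87 between 30AC5 and PS24 and than the gap of 1.66 between PS24 and PAFSC. The other neighbours differed by 0.33 to 0.47, less than that SD. The SSEA1-labelled lines were themselves apart: PS24 minus 30AC5 was -0.87 on S1 and -1.69 on A1, and 11.1% of all probe sets differed by 1 log2 unit or more between these lines. PS24 was also the array with the low 5′ signal of the control genes, and whether that bears on its FGF2 values was not tested. The values of the S1 and A1 probe sets of FGF2 correlated at r = 0.83 over the 6 arrays, which share their scaling, and at 0.88 over the 5 arrays without PAFSC.

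NUDT6, an antisense neighbour whose gene overlaps FGF2 in the pig gene table of the assembly Sscrofa11.1, was looked at because of that place, outside the rule for named genes. Its probe set Ssc.30853.1.S1_at stood at 2.41 in 30AC5 and 1.89 in PS24, at -0.03 in iPSCs-w and -0.71 in iPF4-2, and at 1.54 in PEF and -0.87 in PAFSC. Its second, Ssc.23813.1.S1_at, stood at -0.26 in 30AC5 and -0.74 in PS24, at 0.26 in iPSCs-w and 0.35 in iPF4-2, and at -0.77 in PEF and -0.31 in PAFSC. On the first NUDT6 probe set both SSEA1-labelled lines were above every other array, an order whose share over all probe sets was not counted. On the second they lay below both SSEA3/SSEA4-only lines and overlapped the somatic samples. Whether FGF2 probes read transcripts of this neighbour was not tested.

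FGF7 was high in 1 sample, the amniotic fluid stem cell culture. The S1 probe set stood at -0.24 in 30AC5, 0.16 in PS24, 0.06 in iPSCs-w and -0.18 in iPF4-2, against -0.06 in PEF and 8.12 in PAFSC. The A1 probe set stood at 0.05 in 30AC5, 0.38 in PS24, 0.01 in iPSCs-w and -0.53 in iPF4-2, against -0.17 in PEF and 5.81 in PAFSC. All 4 iPS lines and the embryo fibroblasts lay together, within 0.39 log2 units on S1 and 0.91 on A1, and PAFSC lay far above them.

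PAFSC was a wide array, and it had 31.1% of all probe sets at least 1 log2 unit above each other array and 50.1% above every other array by any amount. Both FGF7 probe sets were among those at least 1 log2 unit above. The difference of PEF minus PAFSC was -8.17 for FGF7 S1 and -5.98 for A1. Between these cultures 70.3% of all probe sets differed by 1 log2 unit or more, and 0.0625% by more than FGF7 S1 did. With 1 array of each culture this difference has no test.

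The FGF7 average of the somatic samples was therefore set by PAFSC. S1 averaged -0.05 ± 0.19 in the iPS lines (SD, n = 4) and 4.03 ± 5.78 in the somatic samples (n = 2), a difference of -4.08 (SE 1.79, limma adjusted p = 0.366). A1 averaged -0.02 ± 0.38 in the iPS lines and 2.82 ± 4.23 in the somatic samples, a difference of -2.84 (SE 1.36, limma adjusted p = 0.391). Against PEF alone the iPS lines differed by 0.01 on S1 (SE 0.29, 95% confidence interval -0.71 to 0.73) and by 0.14 on A1 (SE 0.40, interval -0.85 to 1.14). With PAFSC as the only somatic array, the differences were -8.17 on S1 and -5.83 on A1 (limma adjusted p = 4.68e-04 and 7.79e-04), in a fit that takes the lone array to vary like the iPS lines and that called 14303 of all probe sets (59.6%).

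Between the marker classes FGF7 differed by 0.02 on S1 (SE 2.17) and 0.48 on A1 (SE 1.64), both with a limma adjusted p of 1.00. The SEs came from the pair of somatic arrays in the shared fit: without PAFSC they were 0.28 on S1 and 0.32 on A1. The A1 values of the SSEA1-labelled lines were both above those of the SSEA3/SSEA4-only lines, and the S1 values overlapped. In the order of the S1 levels PAFSC led by 7.96, and the other 5 arrays followed with gaps of at most 0.12. The 2 FGF7 probe sets correlated at r = 0.99 over the 6 arrays, and at 0.65 over the 5 arrays without PAFSC.

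In the deposited values of the DUSP6 S1 probe set all 4 iPS lines lay below both somatic samples, without passing the test. The A1 probe set had its lowest deposited value in PAFSC. S1 stood at 1.95 in 30AC5, 1.74 in PS24, 1.24 in iPSCs-w and 0.10 in iPF4-2, against 2.87 in PEF and 2.36 in PAFSC. The iPS lines did not overlap the somatic samples in these values, and iPF4-2 was the lowest. That separation was lost after rescaling, which left only PEF above all 4 iPS lines. After median centring PAFSC stood at 1.66, below 30AC5 at 1.94 and PS24 at 1.70. Quantile normalization put PAFSC at 1.01, below 30AC5 and PS24, both at 2.18, and iPSCs-w at 1.48. A1 stood at 1.48 in 30AC5, 0.63 in PS24, 0.16 in iPSCs-w and -0.96 in iPF4-2, against 1.40 in PEF and -2.59 in PAFSC. On A1 PAFSC was the lowest array, 30AC5 lay just above PEF, and iPF4-2 was again the lowest iPS line.

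For S1 the iPS lines averaged 1.26 ± 0.83 (SD, n = 4) and the somatic samples 2.61 ± 0.36 (n = 2), a difference of -1.36 (SE 0.62, 95% confidence interval -2.78 to 0.07, limma adjusted p = 0.376). For A1 the iPS lines averaged 0.33 ± 1.02 and the somatic samples -0.59 ± 2.82, a difference of 0.93 (SE 1.09, limma adjusted p = 0.599). Without PAFSC both differences were negative, -1.61 on S1 (limma adjusted p = 0.465) and -1.07 on A1 (limma adjusted p = 0.70), now against PEF alone. With PAFSC as the only somatic array the A1 difference was 2.92 (limma adjusted p = 0.0346), in the fit that called 59.6% of all probe sets. Neither difference on all 6 arrays passed the threshold. Quantile normalization gave -0.13 on S1 and 0.15 on A1. Median and MAD scaling, which stretches or shrinks each array's log2 scale to a common spread, gave -0.54 on S1 and turned A1 to -0.073 on that rescaled scale. In the comparison of iPS lines with somatic samples limma called 0 of the 6 probe sets of FGF2, FGF7 and DUSP6, beside 6 of all probe sets (0.025%). In the deposited values DUSP6 S1 was the only one of the 6 on which the 4 iPS lines did not overlap the somatic samples. Of all probe sets, 9.99% stood apart in that direction and 21.9% in either.

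Within the iPS lines DUSP6 was higher in both SSEA1-labelled lines than in both SSEA3/SSEA4-only lines on each probe set. On S1 the SSEA1-labelled lines averaged 1.85 ± 0.14 and the SSEA3/SSEA4-only lines 0.67 ± 0.81 (SD, n = 2 each), a difference of 1.17 (SE 0.67, 95% confidence interval -0.39 to 2.74). On A1 the SSEA1-labelled lines averaged 1.06 ± 0.60 and the SSEA3/SSEA4-only lines -0.40 ± 0.79, a difference of 1.45 (SE 1.23, interval -1.40 to 4.31). Both limma adjusted p-values were 1.00, and without PAFSC they were 0.439 on S1 and 0.411 on A1. Differences between the classes larger in size than that of S1 were found for 8.67% of all probe sets, and larger than that of A1 for 5.67%.

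**Figure D2:**
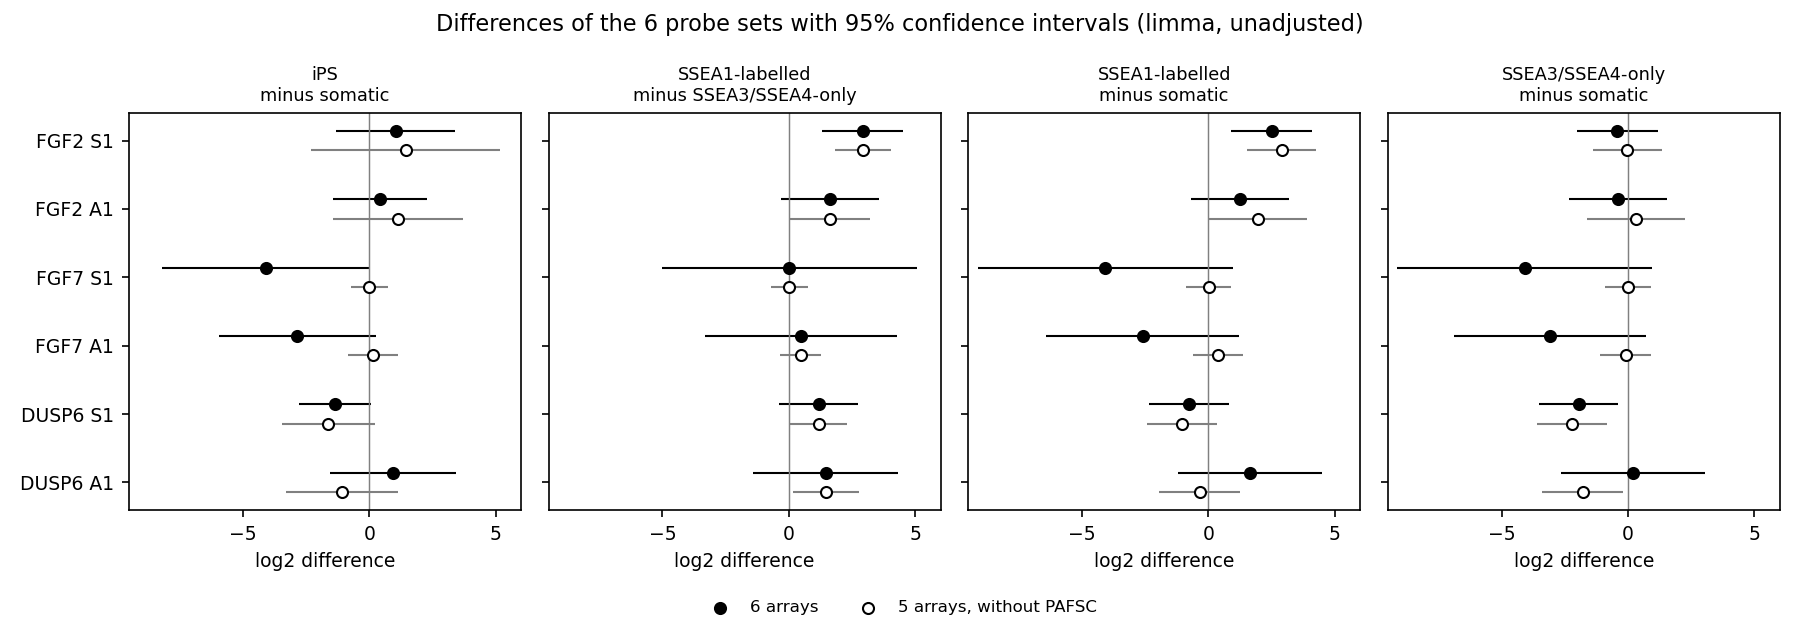
Log2 differences of the 6 probe sets in 4 comparisons, as points with unadjusted 95% confidence intervals from limma, filled for the fit on 6 arrays and open for the fit on 5 arrays without PAFSC. The FGF2 S1 interval for SSEA1-labelled minus SSEA3/SSEA4-only lines runs from 1.32 to 4.51, and the FGF7 differences from the somatic samples lie near 0 once PAFSC is left out.

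The SSEA3/SSEA4-only lines lay furthest below the somatic samples on DUSP6 S1. They differed from the somatic samples by -1.94 (SE 0.67, 95% confidence interval -3.51 to -0.38, limma adjusted p = 0.464), and from PEF alone by -2.20. After quantile normalization the difference from the somatic samples was -0.78, with iPF4-2 at 0.27 and iPSCs-w at 1.48, above PAFSC at 1.01. The SSEA1-labelled lines differed from the somatic samples by -0.77 (SE 0.67), and by 0.52 after quantile normalization and 0.45, on the rescaled scale, after median and MAD scaling. On A1 the differences from the somatic samples were 0.20 for the SSEA3/SSEA4-only lines and 1.65 for the SSEA1-labelled lines, and against PEF alone they were -1.80 for the SSEA3/SSEA4-only and -0.34 for the SSEA1-labelled lines. Against PAFSC alone, where limma called 59.3% of all probe sets for the SSEA1-labelled and 60.1% for the SSEA3/SSEA4-only lines, 3 of these 4 DUSP6 differences passed: -1.68 on S1 for the SSEA3/SSEA4-only lines (limma adjusted p = 0.0446), and on A1 2.19 for the SSEA3/SSEA4-only (limma adjusted p = 0.0314) and 3.65 for the SSEA1-labelled lines (limma adjusted p = 0.00825).

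In the deposited values the order on DUSP6 S1 was PEF, PAFSC, 30AC5, PS24, iPSCs-w and iPF4-2. The first 5 followed each other by 0.20 to 0.52, less than the residual SD of 0.67, and only the last gap, 1.14 between iPSCs-w and iPF4-2, was larger. On A1 only the gap of 1.63 between iPF4-2 and PAFSC was larger than the residual SD of 1.23. The difference of iPF4-2 minus iPSCs-w was -1.14 on S1 and -1.12 on A1, and 10.3% of all probe sets differed by 1 log2 unit or more between these lines. PS24 minus 30AC5 was -0.20 on S1 and -0.85 on A1.

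The split of the DUSP6 pair in PAFSC was measured directly. S1 minus A1 was 4.94 in PAFSC, against 0.46 to 1.47 on the other 5 arrays, and the correlation of the pair was r = 0.24 over the 6 arrays and 0.94 over the 5 without PAFSC. PAFSC minus the other arrays is thus read differently by the probe sets of 1 gene, and PAFSC is also the array with the widest values and a high 5′ minus 3′ control value. The part of either in the split was not tested.

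**Figure D3:**
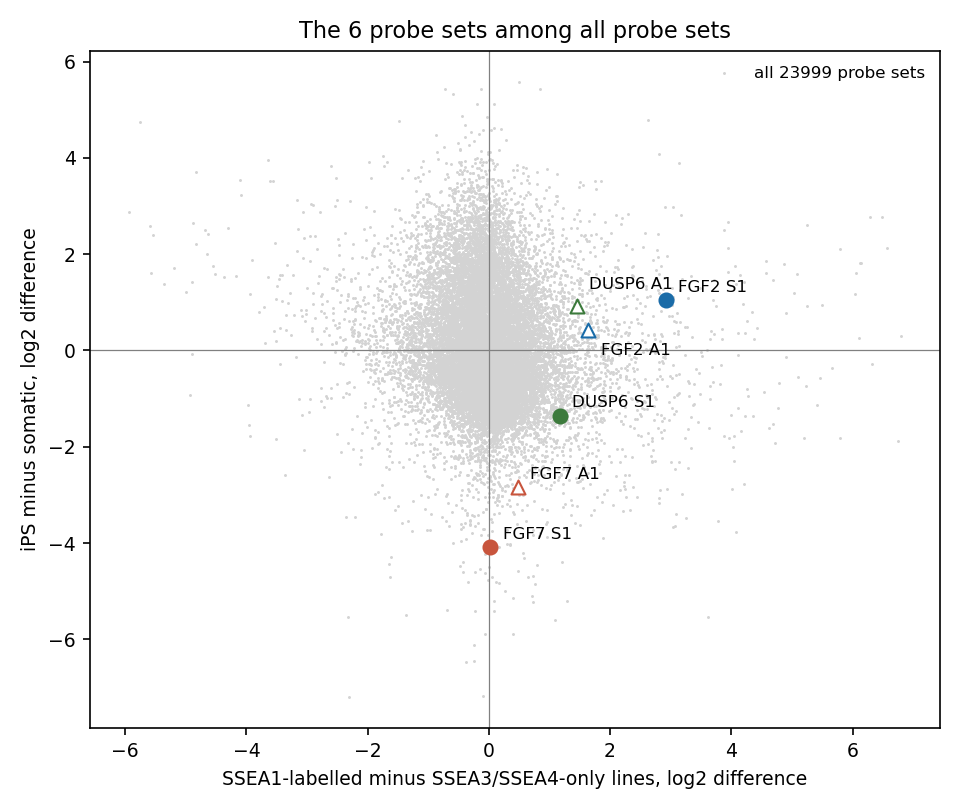
Each of the 23999 probe sets as a grey point at its log2 difference of SSEA1-labelled minus SSEA3/SSEA4-only lines (x axis) and of iPS lines minus somatic samples (y axis), with the 6 probe sets of FGF2, FGF7 and DUSP6 marked. FGF2 S1 lies at 2.92 and 1.04, FGF7 S1 at 0.02 and -4.08, and DUSP6 S1 at 1.17 and -1.36.

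The pathway around these genes was read from 6 lists: other FGF ligands, receptors, heparan sulfate co-receptors and their enzymes, the ERK cascade, ERK targets and feedback genes, and other dual specificity phosphatases. Of 109 genes listed, 37 were measured, by 57 probe sets. Limma called 0 of the 57 in the comparison of iPS lines with somatic samples, with 16 at an unadjusted p under 0.05, beside 3276 of all probe sets (13.7%). It called 0 in the comparison of the marker classes, with 5 at an unadjusted p under 0.05, beside 2.84% of all probe sets. In the first comparison 40 of the 57 differences (70.2%) were negative, beside 60.9% of all probe sets, and the median over all probe sets of the array was -0.34, or 0.13 without PAFSC.

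Other FGF ligands were measured for 5 of 22 genes. Their median iPS minus somatic difference was -1.22, and -0.07 without PAFSC. FGF1, FGF9 and FGF18 were higher in PAFSC than on any other array, as were 50.1% of all probe sets. PAFSC stood at 2.22 and 2.83 for the FGF1 probe sets, 2.53 for FGF9 and 2.02 for FGF18. FGF12, one of the intracellular FGF-like proteins that are not secreted, stood at -0.33 in 30AC5, -0.23 in PS24, 1.40 in iPSCs-w and 0.46 in iPF4-2, against -1.63 in PEF and -2.75 in PAFSC on the probe set with the larger change (difference 2.52, limma adjusted p = 0.232). FGF13, of the same intracellular group, stood at -0.34 in 30AC5 and 1.28 in PS24, against -2.54 in iPSCs-w and -5.22 in iPF4-2, a difference of 4.35 between the marker classes (SE 1.07, limma adjusted p = 0.762). It stood at -1.14 in PEF and 0.43 in PAFSC, so the low values were those of the SSEA3/SSEA4-only lines.

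Of 7 listed receptor genes, FGFR1 and FGFR2 were measured, by 3 probe sets. FGFR2, the gene whose epithelial form binds FGF7, stood at -0.20 in 30AC5 and -2.37 in PS24, against 0.89 in iPSCs-w and 0.51 in iPF4-2 (difference -1.98, SE 0.85, limma adjusted p = 1.00), and at 0.14 in PEF and -0.83 in PAFSC. PS24 alone was far below the rest. One FGFR1 probe set differed by -1.78 between iPS lines and somatic samples (SE 0.79, limma adjusted p = 0.370), with PAFSC at 1.92 and the other 5 arrays at -0.49 or lower, and without PAFSC its difference was -0.44. The other FGFR1 probe set differed by 0.34, and by -0.51 without PAFSC.

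Heparan sulfate carriers and enzymes were measured for 8 of 20 genes by 17 probe sets, with a median iPS minus somatic difference of -0.93, and -0.62 without PAFSC. SDC2, a transmembrane heparan sulfate proteoglycan, stood at 1.72 in 30AC5, 0.08 in PS24, -2.56 in iPSCs-w and -1.25 in iPF4-2, against 3.43 in PEF and 1.91 in PAFSC on Ssc.10793.1.A1_at. Its differences were -3.17 and -2.82 for iPS lines minus somatic samples on its probe sets (limma adjusted p = 0.321 and 0.335), and 2.80 and 2.38 for SSEA1-labelled minus SSEA3/SSEA4-only lines. EXT1, a heparan sulfate polymerase, differed by -1.90 between iPS lines and somatic samples (limma adjusted p = 0.316), with PAFSC at 2.51, and by -0.87 without that array. HS2ST1, a sulfotransferase, was read differently by its probe sets: one gave 2.35, with PAFSC at -4.16, or 0.59 without that array, and the other 3 gave -0.18 to 0.32.

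Genes of the ERK cascade were measured for 9 of 22 genes by 12 probe sets, with a median difference of 0.22 for iPS minus somatic and -0.18 for the marker classes. GRB2, an adaptor protein, differed by 2.78 on one probe set (SE 0.79, limma adjusted p = 0.260), or 1.42 without PAFSC, which stood at -3.48, and by 0.32 and -0.84 on its others. FRS2, the docking protein of FGF receptors, differed by 1.58 and PLCG1, a phospholipase bound by the receptors, by 2.00. In both the low array was PAFSC, at -3.70 for FRS2 and -3.52 for PLCG1, and without PAFSC the differences were -0.29 for FRS2 and 0.15 for PLCG1. PLCG1 also differed by -1.80 between SSEA1-labelled and SSEA3/SSEA4-only lines (SE 1.12).

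ERK targets and feedback genes other than DUSP6 were measured for 8 of 25 genes by 13 probe sets. Of the 13, 11 had a negative iPS minus somatic difference, with a median of -1.08, and of -1.65 without PAFSC. MYC stood at 0.15 in 30AC5, -0.75 in PS24, -1.04 in iPSCs-w and 0.29 in iPF4-2, against 5.55 in PEF and -0.14 in PAFSC. IER3, an immediate early gene, stood at 0.11 in 30AC5, -0.11 in PS24, 0.46 in iPSCs-w and -0.44 in iPF4-2, against 3.87 in PEF and 1.44 in PAFSC. These were the 2 pathway probe sets called when PAFSC was left out, lower in the iPS lines than in PEF, with differences of -5.89 for MYC and -3.86 for IER3 (limma adjusted p = 0.0351 for both), where 0.567% of all probe sets were called. The fit without PAFSC has PEF as its lone somatic array, which it takes to vary like the iPS lines. With a lone PEF culture, these p-values do not speak for fibroblasts in general. With PAFSC the differences were -3.05 for MYC and -2.65 for IER3, neither past the threshold. EGR1, another immediate early transcription factor, differed by -2.63, -2.41 and -2.20 on its 3 probe sets, with iPSCs-w the lowest array on each.

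ETV5, an ETS factor that like DUSP6 is switched on by FGF/ERK signalling, had its highest values in the SSEA1-labelled lines on the A1 probe set. It stood at 2.68 in 30AC5 and 2.07 in PS24, at 1.40 in iPSCs-w and -0.66 in iPF4-2, and at -0.07 in PEF and 0.35 in PAFSC. On the S1 probe set it stood at 2.90 in 30AC5 and 2.04 in PS24, at 1.69 in iPSCs-w and 0.05 in iPF4-2, and at 0.41 in PEF and 2.18 in PAFSC. The marker classes did not overlap on either probe set, where 21.0% of all probe sets stood apart in that direction. Of the 13 probe sets of this list, 3 stood apart in that direction and 2 in the other. The ETV5 differences were 2.00 on A1 (SE 0.81) and 1.60 on S1 (SE 0.88), both with a limma adjusted p of 1.00. Within the SSEA3/SSEA4-only lines iPF4-2 lay below iPSCs-w for ETV5 on both probe sets, as it did for DUSP6. The rest of the list was mixed. FOSL2 and IER3 also had iPF4-2 below iPSCs-w, while FOS, MYC, IER2 and EGR1, on each of its probe sets, had it above. The FOSL1 probe sets went both ways.

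FOSL2 and FOS, AP-1 transcription factors, gave opposite signs between the marker classes, 1.68 for FOSL2 and -1.57 for FOS. In this list 9 of 13 differences between the marker classes were positive, with a median of 0.21, beside 0.01 over all probe sets.

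Other dual specificity phosphatases were measured for 5 of 13 genes, with 1 probe set each. DUSP1, a nuclear phosphatase of MAP kinases, stood at -1.92 in 30AC5, -1.22 in PS24, -0.97 in iPSCs-w and 0.28 in iPF4-2, against 3.02 in PEF and -1.13 in PAFSC (difference -1.91, limma adjusted p = 0.431, and -3.98 without PAFSC). DUSP11 and DUSP14 differed by 3.29 and 2.16. Both had their lowest value in PAFSC, at -6.56 for DUSP11 and -2.83 for DUSP14, and without that array the differences were -0.01 for DUSP11 and 1.25 for DUSP14. DUSP7 and DUSP9, which like DUSP6 act on ERK, differed by -0.43 and -0.49. DUSP9 stood at 2.16 in PAFSC, and without that array its difference was 0.84.

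**Figure D4:**
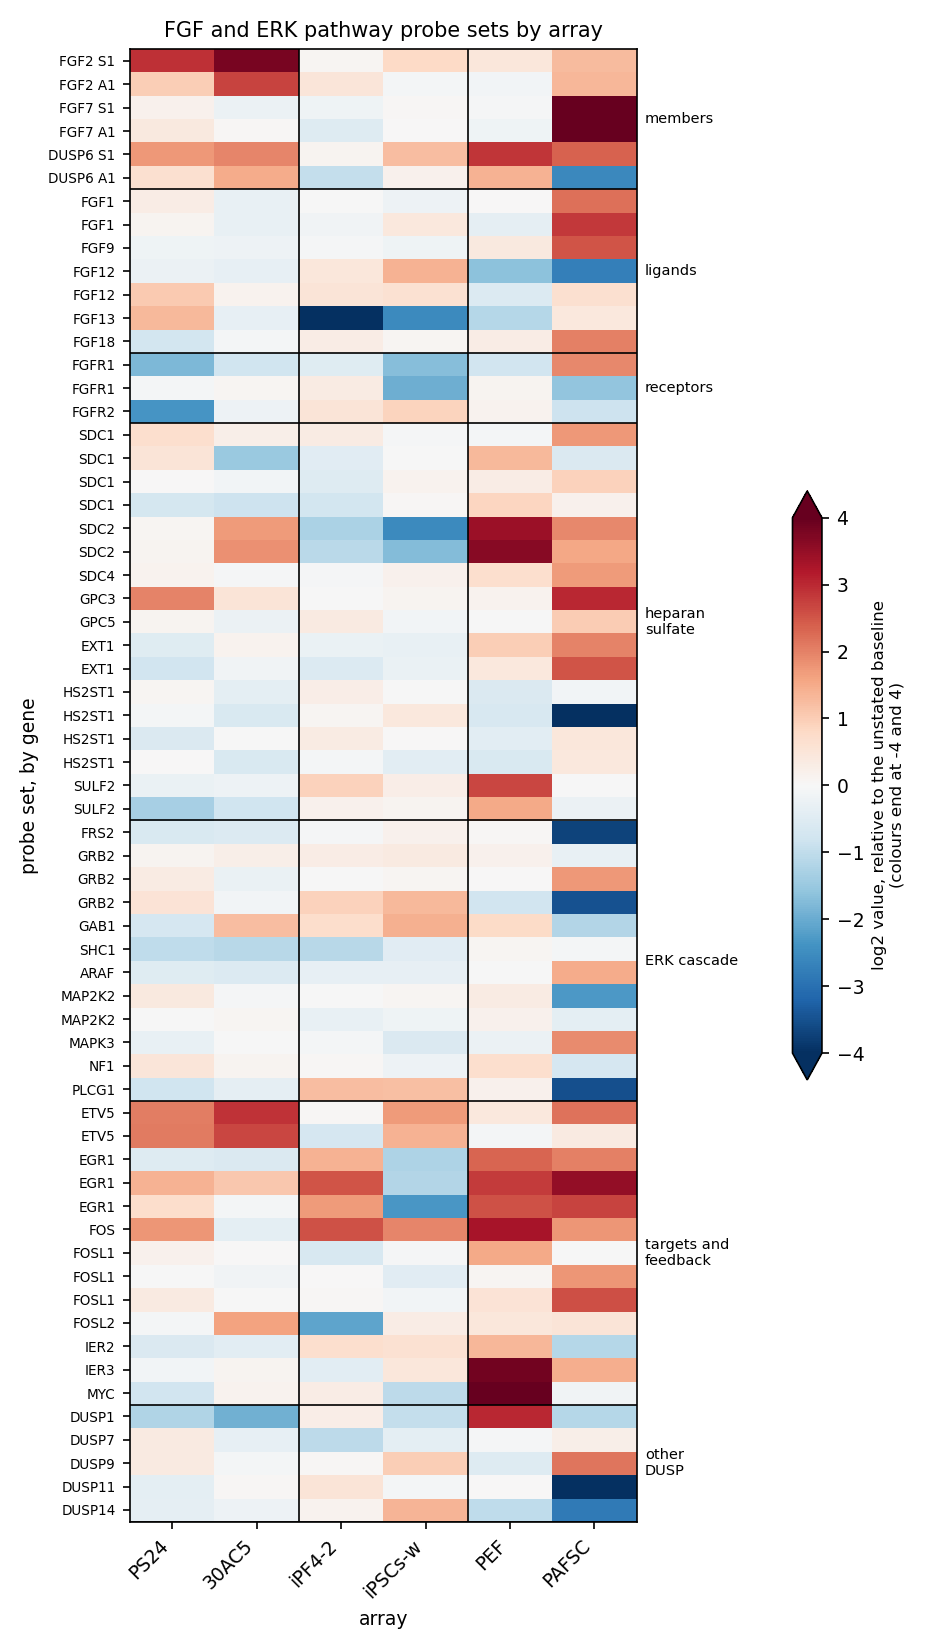
Deposited log2 values of the 6 probe sets of FGF2, FGF7 and DUSP6 and of the 57 pathway probe sets (1 line each, by list) on the 6 arrays in colour, red above and blue below the unstated baseline, with colours ending at -4 and 4. FGF2 and ETV5 are red in PS24 and 30AC5, but FGF2 is also red in PAFSC and ETV5 in iPSCs-w. An ETV5 probe set stands at 2.18 in PAFSC. FGF7 is deep red in PAFSC alone, and MYC and IER3 are highest in PEF.

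The genes whose pattern over the 6 arrays was most like each probe set were taken by Pearson correlation among probe sets with 1 symbol and an SD of at least 50% of its own. For FGF2 S1 they were PLA2G7 (r = 0.979), MAL2, MAPK14, CDH6 and SLC2A12, and for FGF2 A1 EGF (r = 0.984), BBX, CLDN5, LOC780435 and TNNI3. For FGF7 S1 they were DCN (r = 0.999), MSMO1, ADAM10, HSBP1 and CLEC3B, and for FGF7 A1 MBP (r = 0.997), KYNU, DCN, PLK3 and TLR8. For DUSP6 S1 they were SORBS3 (r = 0.991), ADGRG1, HES1, LOC100156657 and SEC24D, and for DUSP6 A1 MYADM (r = 0.991), CAST, ARL6IP5, CD46 and B2M. The lists of a gene's S1 and A1 probe sets shared 1 gene for FGF7, DCN, and 0 genes for FGF2 and DUSP6. With 6 arrays and many probe sets such values are only a description. Without PAFSC the correlation with FGF7 S1 was 0.28 for DCN, and the correlation with FGF2 S1 was 0.982 for PLA2G7. Other genes then took the place of all those listed for FGF2 S1 and for FGF7 S1, with SLC11A1 most like FGF2 S1 (r = 0.999).

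FGF2 and DUSP6 did not follow one order over the 6 arrays. Their S1 probe sets correlated at r = 0.26 over the 6 arrays, and at 0.31 without PAFSC. FGF2 S1 and DUSP6 A1 correlated at 0.41, and at 0.57 without PAFSC. FGF2 A1 correlated at 0.13 with DUSP6 S1 and 0.05 with DUSP6 A1, and at 0.07 and 0.40 without PAFSC. DUSP6 S1 was highest in PEF, where FGF2 S1 had its lowest value but one, while iPF4-2 was the lowest array for both S1 probe sets. On A1 the lowest array was PEF for FGF2 and PAFSC for DUSP6.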

How the data were processed

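Total RNA of 4 iPS lines and 2 somatic samples was read on Affymetrix pig arrays as biotin-labelled cRNA, per the labels' protocols. The deposited values are log2 values of 24123 probe sets with 0 missing; background correction, summarisation, normalisation and baseline are not given in these sources. For 18.4% of probe sets a pair of arrays had values of equal size and opposite sign (within 1e-06), as FGF7 S1 did in PEF and iPSCs-w. The number of arrays limits the precision, and depth does not apply.

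The 124 control probe sets were left out. Genes were named from the platform annotation where it gave 1 symbol. Limma 3.58.1 in R 4.3.3 (lmFit and eBayes, statmod 1.5.0 for the robust alternative) was fitted two-sided on all 6 arrays, in 2 classes (iPS, somatic; 4 residual degrees of freedom) or 3 (SSEA1-labelled, SSEA3/SSEA4-only, somatic; 3), with Benjamini-Hochberg adjustment over 23999 probe sets at 0.05. The fit was tested on simulated data in which, apart from known added differences, a probe set had the same mean and SD on every array. An array as wide as PAFSC was not covered by that test. Pairs of single arrays were compared without a test.

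The members, lists and rules were chosen with earlier results of these data known. Named were all member probe sets, up to 4 pathway probe sets per list and comparison with the largest differences, of which those of 1.5 or more are printed with a few others added after seeing their values, and the 5 most similar genes. Alternatives were quantile, median and MAD scaling, a filter on the lowest 40% by mean, eBayes with a trend or robust, only the iPS lines, Spearman correlation, and 1 sample left out at a time. Dropping PAFSC with PS24 was chosen after seeing the data. No sequences are printed.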

Additional observations from a re-analysis of the deposited data

Results flagged for a closer look

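Of the values of the 4 iPS lines, 2 pathway probe sets had a highest line far from the other 3 by the gap to its nearest neighbour as a share of the range. SDC1, a heparan sulfate proteoglycan, on Ssc.31172.3.S1_at stood at 0.03 in iPSCs-w and between -0.84 and -0.69 in the other lines, against 0.84 in PEF and 0.18 in PAFSC, with a gap share of 0.831. SHC1, an adaptor protein, stood at -0.46 in iPSCs-w and between -1.10 and -1.02 in the other lines, against 0.08 in PEF and -0.08 in PAFSC, with a gap share of 0.870. Chance alone marks about 1 in 20 groups of this size, and 63 probe sets were looked at, including the 6 of FGF2, FGF7 and DUSP6, of which 0 were marked.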

How the results depend on the processing

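No member difference passed the adjusted threshold with all 6 arrays under any scaling, filter or moderation tried. The difference of SSEA1-labelled minus SSEA3/SSEA4-only lines for FGF2 S1 was positive under all 14 alternatives, from 2.48 to 3.36 under 13 of them and 4.85 on the rescaled values of median and MAD scaling, with its lowest limma adjusted p, 0.0583, after quantile normalization. The FGF2 A1 and both DUSP6 differences between these classes were also positive throughout, from 0.79 to 2.48 for FGF2 A1, 0.60 to 1.74 for DUSP6 S1 and 0.89 to 2.01 for DUSP6 A1 without that scaling, and 2.73, 1.97 and 2.50 with it. For iPS minus somatic DUSP6 S1 ran from -1.78 to -0.13, the smallest size being that after quantile normalization. The cause of each change below was not tested.

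Counts of called probe sets over the array moved widely. For iPS minus somatic (6 called) they were 1 after median centring, 0 after median and MAD scaling, 35 without the lowest 40% by mean, 2 with an eBayes trend and 0 without PAFSC and PS24. For the marker classes (0 called) they were 90 after quantile normalization, 30 after median and MAD scaling, 44 with the filter and 4 in the iPS lines alone. For SSEA1-labelled minus somatic (0) they were 7, 4 and 23 under the first 3 of these, and for SSEA3/SSEA4-only minus somatic (0) 3 after quantile normalization and 49 with the filter. Leaving out 1 sample gave 0 to 14303 calls for iPS minus somatic, 0 to 4 for the marker classes, 0 to 14241 for SSEA1-labelled minus somatic and 0 to 14432 for SSEA3/SSEA4-only minus somatic, with the highest counts against somatic cells always without PEF.

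Several differences changed sign. After quantile normalization and after median and MAD scaling, SSEA1-labelled minus somatic was 0.52 and 0.45 for DUSP6 S1, and SSEA3/SSEA4-only minus somatic was 0.13 and 0.18 for FGF2 S1, 0.22 and 0.29 for FGF2 A1, and -0.81 and -1.32 for DUSP6 A1. Median and MAD scaling gave -0.073 for DUSP6 A1 in iPS minus somatic. Without PAFSC and PS24, iPS minus somatic was 0.0085 for FGF7 A1, -1.17 for DUSP6 A1 and -0.17 for FRS2. SSEA1-labelled minus SSEA3/SSEA4-only was then -0.18 for FGF7 S1, SSEA1-labelled minus somatic 0.22 for FGF7 A1, and SSEA3/SSEA4-only minus somatic 0.33 for FGF2 A1 and -1.80 for DUSP6 A1.

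Leaving out 1 sample, the iPS minus somatic difference ran from -0.31 to 1.14 for FGF2 A1, from -8.17 to 0.0080 for FGF7 S1, from -5.83 to 0.14 for FGF7 A1, and from -1.07 to 2.92 for DUSP6 A1. It ran from -0.29 to 3.45 for FRS2, from -0.0097 to 6.58 for DUSP11 and from -3.98 to 0.17 for DUSP1. FGF7 S1 ran from -0.18 to 0.22 between the marker classes. SSEA1-labelled minus somatic ran from -8.16 to 0.018 for FGF7 S1, from -5.59 to 0.38 for FGF7 A1 and from -0.34 to 3.65 for DUSP6 A1, and SSEA3/SSEA4-only minus somatic from -1.12 to 0.33 for FGF2 A1 and from -1.80 to 2.19 for DUSP6 A1. The extremes were mostly those without PEF and without PAFSC. Each of these fits has a lone somatic array, which it takes to vary like the iPS lines. Without PEF, 11 of 18 member differences and 11 of 17 named pathway differences from somatic cells passed the threshold, in fits that called 59.3% to 60.1% of all probe sets. Without PAFSC, 0 of the 18 and 2 of the 17 passed.

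Between single arrays, probe sets at 1 log2 unit or more numbered 8216 after quantile normalization, and 7620 at 1 unit of the rescaled values after median and MAD scaling, which is not the same threshold, for PEF minus PAFSC, 5465 and 6233 for PS24 minus 30AC5, and 5299 and 6136 for iPF4-2 minus iPSCs-w. Without PAFSC, 0 of the 5 most similar genes were retained for each member probe set except DUSP6 S1, which retained 1. No paired analysis was possible because the labels give no replicate numbers. With 6 arrays of 6 different cultures, 1 array can set or remove a member's difference.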
